A study of Mus musculus with 8 samples.

Results

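Cyclins and cyclin-dependent kinases (CDKs) of the cell cycle were followed in muscle stem cells (MuSCs) of aged mice cultured with nicotinamide and pyridoxine (NAM/PN) or with vehicle. The set held 10 genes of the 55487 in the count table and was named by gene symbol. Its members were the D cyclins Ccnd1, Ccnd2 and Ccnd3, the E cyclins Ccne1 and Ccne2, Ccna2, Ccnb1, and the kinases Cdk1, Cdk2 and Cdk4. All 10 passed the filter on low counts, which left 12060 genes for testing.

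The cells came from aged wild-type C57BL/6JRj male mice, per the study's methods, and were sorted from hindlimb muscle as CD31-, CD45-, CD11b-, Sca1-, CD34+ and ITGA7+ cells. Both groups were then kept in growth medium for 72 hours. One group received 1% DMSO as vehicle and the other the NAM/PN combination, labelled with a single concentration of 1 mM. Whether the NAM/PN wells also held DMSO is not stated. Hours and vehicle are given as the samples are labelled. The study's methods for proliferation assays of mouse MuSCs name a longer culture and a lower DMSO concentration. From 8 mice, 4 pools of 2 mice were made, and each pool number appears once in each group, which gave 4 libraries with vehicle and 4 with NAM/PN. A pool is therefore an average of 2 animals, the cells are a culture in growth medium and not muscle, and no untreated MuSCs from young mice or from before culture were analysed here.

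A CDK is inactive until a cyclin binds it. D cyclins, made in response to growth factors, pair with CDK4 and CDK6 in G1 and start the phosphorylation of RB, E cyclins pair with CDK2 at the entry into S phase, cyclin A pairs with CDK2 and CDK1 during S and G2, and cyclin B with CDK1 drives mitosis. In muscle, proliferating myoblasts use D1 and D2 cyclins, whereas Ccnd3 and the CDK inhibitor Cdkn1a are known to be induced when myoblasts leave the cell cycle to differentiate.

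Libraries held between 6472484 and 10163101 counts, and 3 counts, the floor of detection, were worth between 0.295 and 0.464 CPM (counts scaled to library size). The members took between 0.307% and 0.369% of a library. MuSC and myoblast markers summed to between 3000 and 3460 CPM with vehicle and between 2450 and 3010 CPM with NAM/PN, so the labelled cell type was present in every library. Of 8 immune markers, 7 were at 0 in every library, as were 4 of 8 endothelial, 3 of 8 fibroblast and 3 of 5 Schwann cell markers. Differentiating myocytes had 10 markers, all lower with NAM/PN, of which 7 passed the test. Mural markers summed to 285 to 611 CPM with vehicle and 95.9 to 156 CPM with NAM/PN, with 1 of 3 tested markers called, and fibroblast markers to 163 to 215 CPM and 59.4 to 1200 CPM, again with 1 of 3 tested markers called. Acta2, 244 to 534 CPM with vehicle and 46.9 to 122 CPM with NAM/PN, and Col3a1, 149 to 166 CPM and 53.7 to 84.4 CPM, were the called genes, both lower. NAM/PN replicates 1 and 2 stood apart on Col1a1, at 486 and 1030 CPM against 1.74 to 41.3 CPM in the other 6 libraries, and on Col1a2, at 41 and 76.4 CPM against 2.43 to 16.9 CPM. Pdgfra, Lum, Dpt and Myh11 of these lists were at 0 in every library. The mural markers Rgs5, Kcnj8, Abcc9 and Pdgfrb were at most at 4.59 CPM in any library. The part of these genes in the results was not tested. By ribosomal RNA, 2 libraries differed from the others of their condition. The same 2 also differed most from them over the counted genes, by values given below with the processing. Vehicle replicate 3 had 18.7% of its counts on the ribosomal RNA gene CT010467.1, against 9.09% to 9.59% in the other vehicle libraries, and NAM/PN replicate 4 had 5.22%, against 10.2% to 11.6%, with the fewest genes detected. Members' fold changes and ratios that moved by over 1.5 times without either one are given below with that value.

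Promoter windows of 3 members are shown because Ccnd3 had the clearest difference of the set and because Cdk1 and Ccnb1 peak together in G2 and mitosis. They are RefSeq windows of 300 bases on GRCm38.p6, from 250 bases before to 50 after a transcription start, and 6 of the 10 members had 7 such windows. Both strands were searched for the cell cycle homology region CHR (TTTGAA or TTCGAA), the CCAAT box (CCAAT), an E2F site (TTTCGCG or TTTGGCG), a TCF/LEF site (CTTTGAT or CTTTGTT) and an E-box (CAGCTG or CACCTG). The E-box search was added after the expression values were seen. Capitals mark the matches, read 5′ to 3′ on the strand of the gene, so that a match on the opposite strand appears as its reverse complement.
Ccnd3, upstream start, chr17:47504801-47505100, plus strand: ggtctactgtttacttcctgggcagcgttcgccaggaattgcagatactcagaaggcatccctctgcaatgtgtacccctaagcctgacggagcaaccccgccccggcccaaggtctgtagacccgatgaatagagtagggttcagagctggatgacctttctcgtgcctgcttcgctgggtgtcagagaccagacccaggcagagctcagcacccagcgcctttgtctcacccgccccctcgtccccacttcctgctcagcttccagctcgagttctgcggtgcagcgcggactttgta
Ccnd3, downstream start, chr17:47593217-47593516, plus strand: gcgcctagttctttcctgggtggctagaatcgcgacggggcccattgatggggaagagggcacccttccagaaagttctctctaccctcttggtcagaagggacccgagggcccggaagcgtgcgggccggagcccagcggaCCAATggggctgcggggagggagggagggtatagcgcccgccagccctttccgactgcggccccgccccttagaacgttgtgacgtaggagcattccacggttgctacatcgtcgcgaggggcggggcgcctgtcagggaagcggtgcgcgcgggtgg
Ccnb1, chr13:100786437-100786736, minus strand: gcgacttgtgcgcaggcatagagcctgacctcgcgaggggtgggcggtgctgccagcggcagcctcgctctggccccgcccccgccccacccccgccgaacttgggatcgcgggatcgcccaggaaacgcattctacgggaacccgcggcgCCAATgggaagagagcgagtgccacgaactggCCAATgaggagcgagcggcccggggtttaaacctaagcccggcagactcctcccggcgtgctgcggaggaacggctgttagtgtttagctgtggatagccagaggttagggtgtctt
Cdk1, chr10:69352863-69353162, minus strand: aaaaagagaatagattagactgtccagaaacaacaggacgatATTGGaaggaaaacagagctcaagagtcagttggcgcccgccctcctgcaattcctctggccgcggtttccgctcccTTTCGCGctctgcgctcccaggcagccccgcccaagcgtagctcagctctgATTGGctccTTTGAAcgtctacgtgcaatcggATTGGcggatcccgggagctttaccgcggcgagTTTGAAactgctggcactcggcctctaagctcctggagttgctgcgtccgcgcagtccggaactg

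The upstream window of Ccnd3 held none of these motifs, and its downstream window held 1 CCAAT box, at position -108 from the start. In Ccnb1, 2 CCAAT boxes lay at -99 and -67. Forms of these motifs other than the listed letters were not searched, for CHR as for the rest. Cdk1 had 6 matches: CHR at -71 and -15, CCAAT on the opposite strand at -208, -80 and -48, and an E2F site at -131. Of the member windows not shown, that of Cdk2 held a CCAAT box at -45 and an E-box at -126. That of Cdk4 held a TCF/LEF site on the opposite strand at -52, and that of Ccne1 held none of the motifs. Over all 32817 windows of this length, 37.4% held a CCAAT box, 19.2% a CHR, 2.36% an E2F site, 9.34% a TCF/LEF site and 33% an E-box. A match describes letters and not a bound factor, and counts from the 3′ end of a transcript do not tell which of both Ccnd3 starts was used.

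Libraries read 1 tag per transcript at its 3′ end, so CPM was compared between genes without division by length. Ccnd1 was the most abundant member in every library, with 1818 ± 362 CPM in the vehicle libraries and 1790 ± 190 CPM in the NAM/PN libraries (SD over the 4 libraries of each), and its lowest library lay above the highest library of every other member. With vehicle it was followed in mean level by Ccnd3, Cdk1, Cdk4, Ccnd2, Ccnb1, Ccna2, Ccne2, Cdk2 and Ccne1. With NAM/PN the order was Ccnd1, Cdk1, Ccnd3, Cdk4, Ccnb1, Ccnd2, Ccna2, Ccne2, Ccne1 and Cdk2. Apart from Ccnd1 and the next gene in both conditions, and Cdk2 and Ccne1 with vehicle, the library ranges of neighbours in these orders overlapped.

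**Figure D1:**
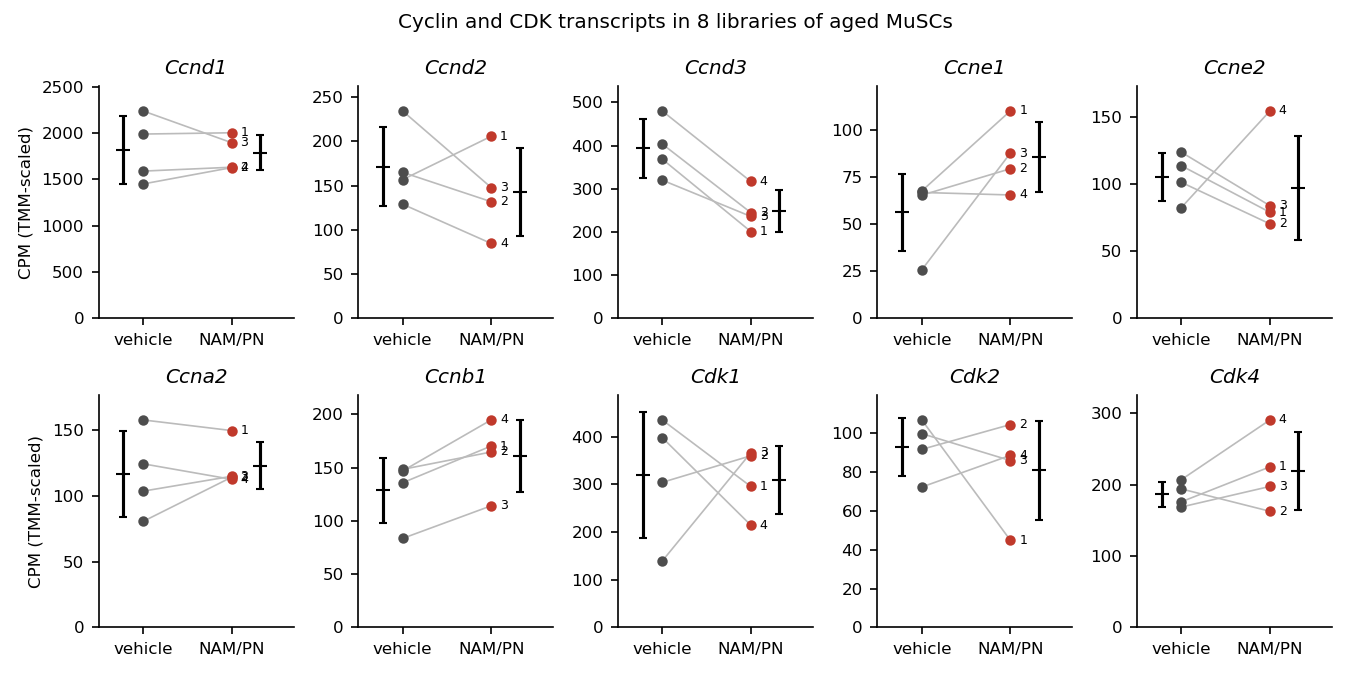
Level of each of the 10 transcripts (y axis, CPM on TMM-scaled library sizes, starting at 0) with vehicle (grey) and NAM/PN (red). Points are libraries, lines join libraries of the same pool (numbered), and the black bars give the mean ± SD (n = 4). Ccnd3 is the only panel in which the 2 groups of points do not overlap.

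Among the 10 members, 0 passed an adjusted p of 0.05 in edgeR's quasi-likelihood test, against 1.28% of all tested genes (0.282% higher and 0.995% lower). At an unadjusted p under 0.05 there were 2, Ccnd3 and Ccne1, against 9.28% of all tested genes. For 1 member, Ccnd3, the vehicle and NAM/PN libraries did not overlap, against 7.21% of all tested genes (4.42% lower), which is near the background for a set of 10. By sign, 4 members were above 0 and 6 below, and the median log2 fold change (NAM/PN over vehicle) was -0.03, beside -0.0022 over all tested genes. DESeq2 called 1 member, Ccnd3, as did limma-voom and edgeR without the filter on low counts, where these called 2.4%, 1.92% and 1.9% of all genes they tested.

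**Figure D2:**
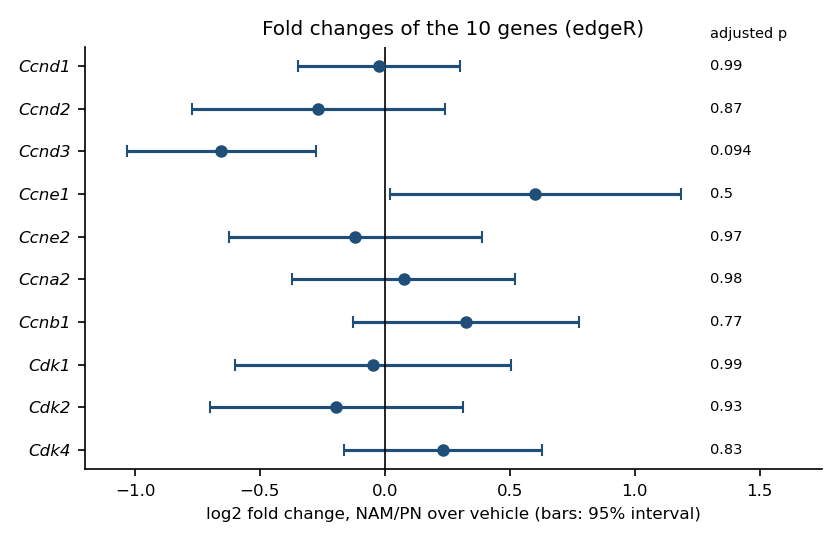
Log2 fold change of each member (x axis, NAM/PN over vehicle) with its 95% interval from edgeR's quasi-likelihood fit and, at the right, its adjusted p. The intervals of Ccnd3, from -1.03 to -0.28, and Ccne1, from 0.021 to 1.18, lie to one side of 0, and the other 8 include it.

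Among the D cyclins, Ccnd3 had the largest difference. Ccnd3 (ENSMUSG00000034165, chromosome 17 of GRCm38 from 47505051 to 47599691, plus strand) measured 368.7, 403.7, 320 and 480.1 CPM in vehicle replicates 1 to 4, and 201, 244.8, 236 and 316.8 CPM in NAM/PN replicates 1 to 4. Every NAM/PN library lay below every vehicle library, by a narrow margin between NAM/PN replicate 4 and vehicle replicate 3. Within pools 1 to 4 the log2 difference was -0.87, -0.72, -0.44 and -0.60. The mean was 393 ± 67.4 CPM in the vehicle libraries and 250 ± 48.6 CPM in the NAM/PN libraries (SD over the 4 libraries of each). The log2 fold change was -0.65 (standard error 0.18, 95% interval -1.03 to -0.28), which is 0.635 of the vehicle level, and it missed the threshold with an edgeR adjusted p of 0.0940, or 0.0747 with the pool as a block.

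The call on Ccnd3 changed with the test and the libraries, while its sign did not. Its adjusted p was 0.0136 in DESeq2 and 0.0213 in edgeR without the filter on low counts. In limma-voom, with library weights and a correlation between libraries of a pool, the adjusted p was 0.00211 and the log2 fold change -0.81. Without vehicle replicate 3 the edgeR adjusted p was 0.0386, without NAM/PN replicate 4 it was 0.0201, and over all libraries and pools left out in turn it ranged from 0.0201 to 0.484, with log2 fold changes from -0.79 to -0.55. Bysl lies on the opposite strand and overlaps Ccnd3 in the annotation, and the strand setting of the counting is not given in the sources used here. Bysl had 75.4 ± 10.9 CPM in the vehicle libraries and 104 ± 21.9 CPM in the NAM/PN libraries (SD over the 4 libraries of each), with the opposite sign to Ccnd3, and did not pass the test (log2 fold change 0.46, standard error 0.21, edgeR adjusted p = 0.498).

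Ccnd1 (ENSMUSG00000070348, chromosome 7 from 144929931 to 144939925, minus strand), the main D cyclin of proliferating myoblasts, had 1990, 1590, 2240 and 1451 CPM in vehicle replicates 1 to 4 and 2004, 1632, 1897 and 1628 CPM with NAM/PN. The groups overlapped, and 3 of 4 pools were slightly above vehicle. The fitted log2 fold change of -0.02 had the narrowest interval of the set, from -0.35 to 0.30 (edgeR adjusted p = 0.993), so that a change of Ccnd1 beyond 0.787-fold or 1.23-fold lay outside it. This sign is not settled, since limma-voom gave 0.10, and it was also above 0 without vehicle replicate 1 (0.02) or 3 (0.09), without NAM/PN replicate 2 (0.02) or 4 (0.02) and without pool 3 (0.06).

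Ccnd2 (ENSMUSG00000000184, chromosome 6 from 127125162 to 127152193, minus strand) had 156.8, 165.1, 234.5 and 129.1 CPM in the vehicle libraries and 205.8, 131.9, 147.9 and 84.72 CPM in the NAM/PN libraries. It was higher with NAM/PN in pool 1 and lower in the other 3 pools, for a fitted log2 fold change of -0.27 (95% interval -0.77 to 0.24, edgeR adjusted p = 0.869), or -0.06 in limma-voom. It was -0.08 without vehicle replicate 3, -0.08 without NAM/PN replicate 4 and -0.50 without NAM/PN replicate 1.

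Counts on the D cyclins were divided between the 3 genes within each library, which removes the library size. Ccnd1 took 75.8 ± 4.60% of them with vehicle and 81.9 ± 1.46% with NAM/PN, Ccnd3 took 17.0 ± 5.13% and 11.6 ± 3.09%, and Ccnd2 7.13 ± 1.07% and 6.44 ± 1.78% (SD over the 4 libraries of each). The log2 ratio of Ccnd1 to Ccnd3 counts was 2.43, 1.98, 2.81 and 1.60 with vehicle and 3.32, 2.74, 3.01 and 2.36 with NAM/PN. It was higher in 4 of 4 pools, yet the groups overlapped, and the difference of 0.65 had a two-sided exact permutation p of 0.143 (0.533 after Benjamini-Hochberg adjustment over the 7 ratios compared). Neither Ccnd1 to Ccnd2 (difference 0.29, exact permutation p = 0.229) nor Ccnd2 to Ccnd3 (0.36, exact permutation p = 0.514) passed the threshold. Without NAM/PN replicate 4 these differences were 0.11 and 0.71, and without vehicle replicate 3 the second was 0.61. The second was also 0.060 without NAM/PN replicate 1 and 0.13 without vehicle replicate 4.

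**Figure D3:**
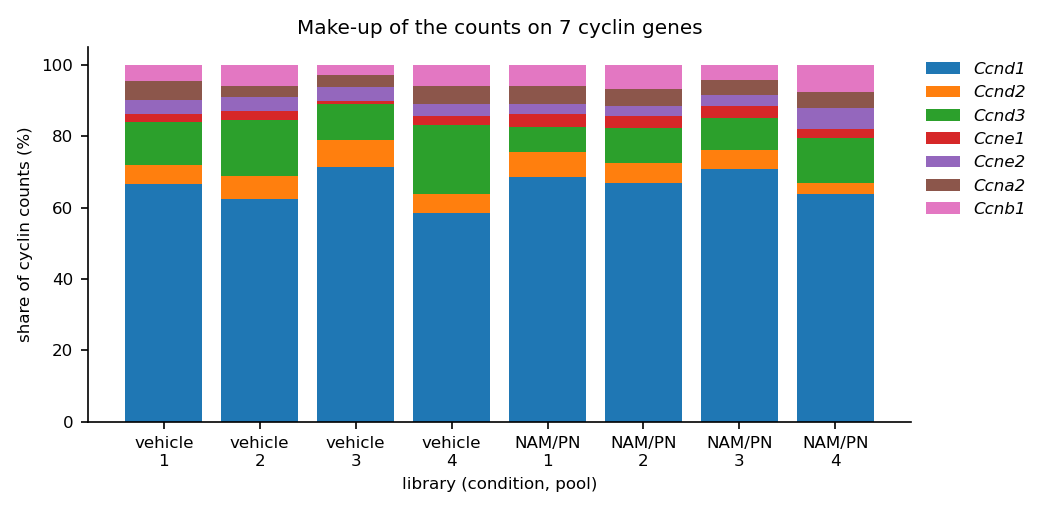
Share of the counts on 7 cyclin genes taken by each (y axis, percent, stacked to 100) in the 8 libraries (x axis, condition and pool number). Ccnd1 takes between 58.5% and 71.5% of a library's cyclin counts, and Ccnd3 between 6.89% and 12.4% with NAM/PN against 10.2% to 19.4% with vehicle.

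Within each condition, Ccnd3 varied between libraries in the opposite direction to Ccnd1 and Ccnd2. From high to low Ccnd3, the vehicle replicates ran 4, 2, 1, 3, and the Ccnd1 order was the exact reverse. The NAM/PN replicates ran 4, 2, 3, 1 for Ccnd3 and in the exact reverse for Ccnd1 and for Ccnd2. Ccnd2 with vehicle was also highest in replicate 3 and lowest in replicate 4, with replicates 1 and 2 close to each other. As a description over the 8 libraries, after each condition's mean was removed, Pearson's r of log2 CPM was -0.96 for Ccnd2 with Ccnd3, -0.85 for Ccnd1 with Ccnd3 and 0.75 for Ccnd1 with Ccnd2. These points share libraries and their normalization. Over all pairs of members r ranged from -0.96 to 0.88, and the highest was Ccne1 with Cdk1, both lowest in vehicle replicate 3 among the vehicle libraries.

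The genes whose log2 CPM followed Ccnd3 most closely over the 8 libraries, of 9211 compared, were Pcyt1a (r = 0.98), an enzyme of phosphatidylcholine synthesis, Cdk5r1 (0.98), the activator of CDK5, Mtss1l (0.97), the muscle transcription factor Myog (0.97) and Mymk (0.96), a membrane protein of myoblast fusion. Myog had 680, 1040, 566 and 1430 CPM in vehicle replicates 1 to 4 and 108, 237, 173 and 277 CPM in NAM/PN replicates 1 to 4, so that its libraries ran in the same order as those of Ccnd3 in both conditions. With the conditions' means removed, r with Ccnd3 was between 0.87 for Mymk and 0.95 for Pcyt1a. Since the 5 were chosen as the closest of 9211 in these same libraries, these values and their differences between the conditions are a description of that choice. Of these 5 genes, Cdk5r1 (log2 fold change -0.99, edgeR adjusted p = 0.0404), Myog (-2.22, 0.000232) and Mymk (-2.60, 0.000974) fell with NAM/PN, and for Pcyt1a and Mtss1l the edgeR adjusted p-values were 0.195 and 0.0940. The call on Cdk5r1 was lost in 8 of 12 fits that left out a library or pool, with an adjusted p of up to 0.419: without vehicle replicates 2 or 4, NAM/PN replicates 1, 2 or 3, or pools 1, 2 or 3. That on Mymk was lost without pool 2 (edgeR adjusted p = 0.0503).

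The summed level of the 10 myocyte markers, which include Myog and Mymk, was 1410 to 2850 CPM with vehicle and 250 to 695 CPM with NAM/PN, without overlap. Their part in the lower Ccnd3 level was not tested. In bulk RNA, fewer cells of a type and less RNA per cell cannot be told apart.

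**Figure D4:**
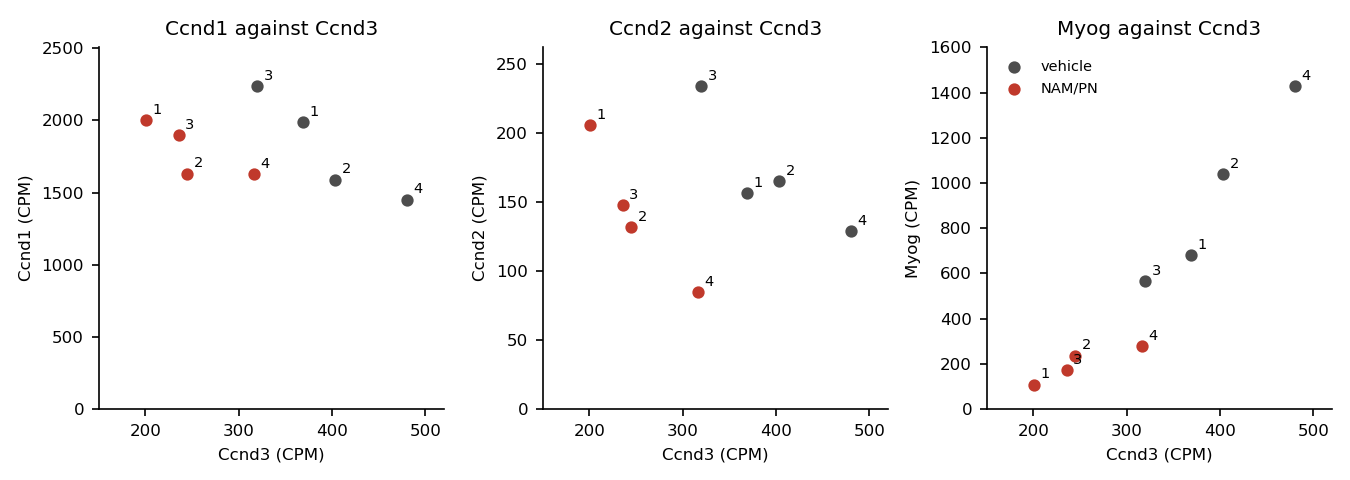
Ccnd1, Ccnd2 and Myog (y axes, CPM) against Ccnd3 (x axis, CPM) in the 8 libraries, numbered by pool, with vehicle in grey and NAM/PN in red. Within a colour, Ccnd1 runs down and Myog runs up as Ccnd3 rises, and Ccnd2 runs down apart from vehicle replicates 1 and 2.

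E cyclins activate CDK2 at the start of DNA synthesis. Ccne1 (ENSMUSG00000002068, chromosome 7 from 38097984 to 38107534, minus strand) had 67.49, 65.26, 25.69 and 66.71 CPM in vehicle replicates 1 to 4 and 109.9, 79.28, 87.56 and 65.38 CPM with NAM/PN. Vehicle replicate 3 lay far below the other vehicle libraries, which were close to each other, and 3 of 4 pools were higher with NAM/PN. Its fitted log2 fold change was 0.60 (standard error 0.28, 95% interval 0.021 to 1.18), with an edgeR adjusted p of 0.504, or 0.427 with the block. Without vehicle replicate 3 it was 0.36 with an edgeR adjusted p of 0.718.

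Ccne2 (ENSMUSG00000028212, chromosome 4 from 11191351 to 11204779, plus strand), the paralog, had 113.9, 101.5, 124 and 82.7 CPM in the vehicle libraries and 79.15, 70.5, 84.06 and 154.8 CPM in the NAM/PN libraries. The log2 difference was -0.52, -0.52 and -0.56 in pools 1 to 3 and 0.90 in pool 4, so 1 pool went against the other 3. Ccne2 had a log2 fold change of -0.12 (95% interval -0.63 to 0.39, edgeR adjusted p = 0.967), or -0.44 without NAM/PN replicate 4 (edgeR adjusted p = 0.459), and was -0.24 in limma-voom, -0.19 with the pool as a block, -0.04 without vehicle replicate 3 and 0.0087 without NAM/PN replicate 2. Ccne1 made up 37.2%, 39.1%, 17.2% and 44.6% of E cyclin counts with vehicle and 58.1%, 52.9%, 51% and 29.7% with NAM/PN, so each condition had 1 library away from the other 3, and the log2 ratio differed by 0.86 (two-sided exact permutation p = 0.229). It differed by 0.43 without vehicle replicate 3 and by 1.23 without NAM/PN replicate 4. Ints8 overlaps Ccne2 on the opposite strand, with 2649 counts in all beside 6902 for Ccne2.

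Cyclins of S phase, G2 and mitosis followed. Ccna2 (ENSMUSG00000027715, chromosome 3 from 36564865 to 36572150, minus strand) had 157.5, 80.4, 103.4 and 124.2 CPM in the vehicle libraries and 149.4, 114, 114.7 and 112.4 CPM in the NAM/PN libraries. The groups overlapped, with 2 of 4 pools higher, and the log2 fold change was 0.08 (95% interval -0.37 to 0.52, edgeR adjusted p = 0.980). Without vehicle replicate 2 it was -0.07, without NAM/PN replicate 1 it was -0.03, without vehicle replicate 3 it was 0.02, without NAM/PN replicate 4 it was 0.11 and without vehicle replicate 1 it was 0.25. Its neighbour Exosc9 overlaps it on the opposite strand with 7223 counts in all, beside 7944 for Ccna2, and where their 3′ tags fall in the overlap was not examined.

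Ccnb1 (ENSMUSG00000041431, chromosome 13 from 100778650 to 100786570, minus strand) was, with Ccnd3, 1 of 2 members that went the same way in all 4 pools. It had 135.7, 148.3, 83.49 and 146.8 CPM in the vehicle libraries and 170.2, 164.6, 114.1 and 194.7 CPM in the NAM/PN libraries, and pool 3 was the lowest in both conditions. Within pools 1 to 4 the log2 difference was 0.33, 0.15, 0.45 and 0.41. The log2 fold change was 0.32 (standard error 0.22, 95% interval -0.13 to 0.78) and did not pass, with an edgeR adjusted p of 0.770, or 0.641 with the pool as a block. Without vehicle replicate 3 it was 0.16, with an edgeR adjusted p of 0.946, and in limma-voom it was 0.17. The log2 ratio of Ccnb1 to Ccna2 differed by 0.23 (two-sided exact permutation p = 0.514), with a range from 0.073 without vehicle replicate 3 to 0.47 without vehicle replicate 2 over the libraries left out in turn, and 0.086 without NAM/PN replicate 4.

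Among the kinases, Cdk1 (ENSMUSG00000019942, chromosome 10 from 69335146 to 69352938, minus strand), the mitotic CDK, had the largest spread between vehicle libraries relative to its mean (41.4%). It had 434.8, 303.9, 138.9 and 397.9 CPM in the vehicle libraries and 295.4, 359.6, 365.8 and 214.3 CPM in the NAM/PN libraries. Vehicle replicate 3, also the lowest vehicle library for Ccne1 and Ccnb1, was below every NAM/PN library, while vehicle replicates 1 and 4 were above all of them. In the fit, the log2 fold change was -0.05 (95% interval -0.60 to 0.50, edgeR adjusted p = 0.990), and its sign was not settled, at 0.03 with the pool as a block, -0.30 without vehicle replicate 3, 0.13 and 0.07 without vehicle replicates 1 and 4, and 0.09 without NAM/PN replicate 4.

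Cdk2 (ENSMUSG00000025358, chromosome 10 from 128697939 to 128705031, minus strand), the partner of E and A cyclins, had 107, 91.81, 99.92 and 72.37 CPM in the vehicle libraries and 44.93, 104.6, 86.04 and 88.73 CPM in the NAM/PN libraries. NAM/PN replicate 1 was the lowest of the 8 libraries, and the other 3 lay within the vehicle range. For Cdk2 the log2 fold change was -0.19 (95% interval -0.70 to 0.31, edgeR adjusted p = 0.926), or 0.0054 without NAM/PN replicate 1.

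Cdk4 (ENSMUSG00000006728, chromosome 10 from 127063534 to 127067920, plus strand), the partner of D cyclins, had 175.8, 193.8, 168.5 and 206.8 CPM in the vehicle libraries and 224.7, 162.5, 197.3 and 290.4 CPM in the NAM/PN libraries. It was the steadiest member between vehicle libraries (17.3 CPM SD around 186 CPM) and spread more with NAM/PN, from the lowest to the highest of all 8 libraries. Its log2 fold change was 0.23 (95% interval -0.16 to 0.63, edgeR adjusted p = 0.834), or 0.06 in limma-voom and 0.06 without NAM/PN replicate 4, its highest library. It was 0.35 without NAM/PN replicate 2, 0.37 without pool 2 and 0.12 without pool 4. Tspan31 overlaps Cdk4 on the opposite strand, with 2257 counts in all beside 13707 for Cdk4. Neither the log2 ratio of Cdk1 to Cdk2 (difference 0.29, two-sided exact permutation p = 0.571) nor that of Cdk4 to Cdk1 (0.16, p = 0.714) passed the threshold. The first turned to -0.10 without vehicle replicate 3 and was 0.52 without NAM/PN replicate 4, 0.04 without NAM/PN replicate 1 and 0.56 without vehicle replicate 4. The second turned to -0.06 without vehicle replicate 1 and -0.16 without NAM/PN replicate 4, and was 0.47 without vehicle replicate 3, 0.06 without vehicle replicate 4 and 0.37 without NAM/PN replicate 2.

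The genes that control these kinases were described from a list of 65, of which 62 were tested, with 1 gene called higher and 2 lower, against 0.282% and 0.995% of all tested genes. All 3 were CDK inhibitors, and DESeq2 and limma-voom called the same 3. In the other 6 roles edgeR, DESeq2 and limma-voom called 0 genes, and 3 (Skp1a, Rb1 and Tfdp1) had an unadjusted edgeR p under 0.05, against 9.28% of all tested genes. By sign, 36 of the 62 were above 0 (58.1%, against 49.8% of all tested genes), and the median log2 fold change was 0.09. Libraries did not overlap for 3 genes higher and 4 lower, against 2.79% and 4.42% of all tested genes.

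Cdkn1a, the CIP/KIP inhibitor that binds CDK complexes of G1 and S, had 1230, 1280, 1180 and 1530 CPM in vehicle replicates 1 to 4 and 574, 566, 450 and 426 CPM in NAM/PN replicates 1 to 4. All NAM/PN libraries lay far below all vehicle libraries. It fell from 1302 ± 154 to 504 ± 76.7 CPM (SD over the 4 libraries of each). Its log2 fold change was -1.37 (standard error 0.16, edgeR adjusted p = 9.4e-05, and 0.000231 with the block), and it passed in every fit that left out a library or pool. NAM/PN replicate 4, the highest NAM/PN library for Ccnd3 and Myog, was the lowest for Cdkn1a.

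Cdkn1c, a further CIP/KIP inhibitor, had 37.9, 25.2, 22.7 and 68.2 CPM in the vehicle libraries and 5.17, 9.47, 16.6 and 5.14 CPM in the NAM/PN libraries. The groups did not overlap, though vehicle replicate 4 stood above the rest. The log2 fold change was -2.09 (standard error 0.46, edgeR adjusted p = 0.0248), and the call was lost with the pool as a block (adjusted p = 0.0586). It was also lost without vehicle replicate 1 (edgeR adjusted p = 0.0692) or 4 (0.243), without NAM/PN replicate 1 (0.102), 2 (0.0697) or 4 (0.0585), and without pools 1, 2 or 4 (0.221, 0.138 and 0.323).

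Cdkn2a, the INK4A and ARF locus, whose INK4A product blocks CDK4 and CDK6, was the called gene that rose. It had 132, 182, 129 and 141 CPM in the vehicle libraries and 262, 279, 202 and 359 CPM in the NAM/PN libraries, so that every NAM/PN library was above every vehicle library. The log2 fold change was 0.92 (standard error 0.20, edgeR adjusted p = 0.0187, and 0.0205 with the block). The call was lost without vehicle replicate 1 (edgeR adjusted p = 0.0768) or 4 (0.0931), without NAM/PN replicate 1 (0.0567) or 2 (0.0599), and without pools 1, 2 or 4 (0.190, 0.102 and 0.157). Counts at the 3′ end do not separate the INK4A and ARF transcripts.

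Among the other 4 inhibitors tested, named after their values were seen, Cdkn2b, the neighbour of Cdkn2a, had a log2 fold change of 1.10 without overlap of the libraries (edgeR adjusted p = 0.286) and Cdkn2d had -0.69 (0.281). For Cdkn1b and Cdkn2c the log2 fold changes were 0.12 and -0.06.

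**Figure D5:**
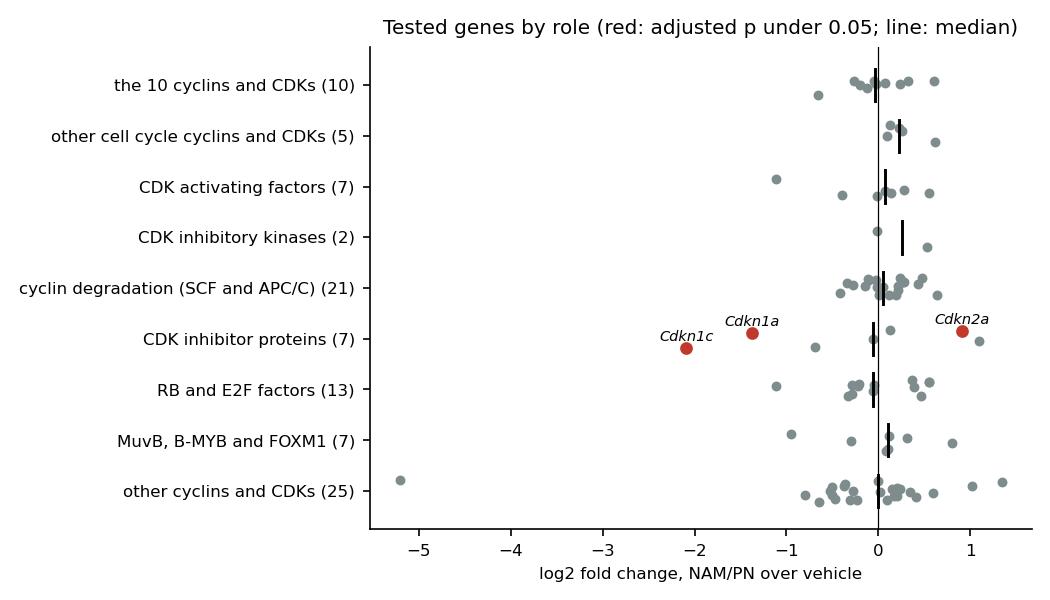
Log2 fold change (x axis, NAM/PN over vehicle) of the tested genes of each role (rows, number tested in brackets), with the median as a line and genes called by edgeR in red. The 3 red points, Cdkn1a, Cdkn1c and Cdkn2a, are all CDK inhibitors, and the 10 cyclins and CDKs hold none.

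In the other roles the gene with the smallest p was named. RB and E2F factors had 13 genes tested and 0 called. Rb1, which D cyclin kinases phosphorylate, had 50.8, 50.4, 51 and 41.9 CPM in the vehicle libraries and 25.9, 20.9, 37.8 and 5.79 CPM in the NAM/PN libraries. The groups did not overlap, but the log2 fold change of -1.11 (standard error 0.40) had an edgeR adjusted p of 0.280. Without NAM/PN replicate 4, its lowest library, it was -0.79 (edgeR adjusted p = 0.284), and it passed only in the fit without the filter on low counts (0.0368). Tfdp1, the dimer partner of E2F factors, was the other member of that role without overlap (0.55, edgeR adjusted p = 0.372) and was named after its values were seen.

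Of 7 CDK activating factors, 0 were called, and Mnat1, a subunit of the CDK-activating kinase, had 87, 117, 119 and 101 CPM in the vehicle libraries and 83.3, 76.6, 79.3 and 83.2 CPM in the NAM/PN libraries (log2 fold change -0.39, edgeR adjusted p = 0.553). Among other cell cycle cyclins and CDKs, 0 of 5 were called, with Cdk7, the catalytic subunit of that kinase, at 0.61 (edgeR adjusted p = 0.552), or 0.40 without vehicle replicate 3, and the D cyclin partner Cdk6 at 0.26 (0.777). Of the inhibitory kinases, Wee1 had -0.01 and Pkmyt1 0.53 (edgeR adjusted p = 0.782), or 0.27 without vehicle replicate 3 and 0.26 in limma-voom. Cyclin degradation by the SCF and APC/C ligases had 21 genes tested and 0 called, from -0.41 to 0.63, with Skp1a, an SCF subunit, at 0.43 (edgeR adjusted p = 0.498). The MuvB complex, B-MYB and FOXM1 had 7 tested and 0 called, and Lin52 (-0.95, edgeR adjusted p = 0.934, and on the log2 scale -0.19 with the block and 0.13 without vehicle replicate 2) was at most at 12.5 CPM in any library.

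Cyclins and CDKs that act mainly in transcription or elsewhere had 25 of 26 genes tested and 0 called by edgeR, a median log2 fold change at -0.0056, and 3 genes at an unadjusted p under 0.05. DESeq2 called 2, Ccng1 and Cdk18, against 2.4% of all genes it tested, and limma-voom called 0. Libraries did not overlap for 2 of them, against 7.21% of all tested genes, and the 3 at an unadjusted p stand against 9.28%, so both counts are near the background. The 2, both lower, were named after their values were seen. Ccng1, a p53 target, had 325 ± 18.0 CPM in the vehicle libraries and 225 ± 28.3 CPM in the NAM/PN libraries (SD over the 4 libraries of each). Its log2 fold change was -0.53 (edgeR adjusted p = 0.147). Cdk18 had 4.26 ± 2.27 CPM in the vehicle libraries and 0.105 ± 0.209 CPM in the NAM/PN libraries, under the floor of detection.

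Lists of genes expressed in S phase and in G2 and mitosis, none of them a member, were set beside the cyclins that act in those phases. Of 43 S phase genes, 38 were above 0 (88.4%, against 49.8% of all tested genes), the median log2 fold change was 0.27 and 1 was called by edgeR and DESeq2, Nasp, a histone chaperone. Limma-voom called 2, Nasp and Ung, a uracil-DNA glycosylase. Over all tested genes edgeR called 1.28%, DESeq2 2.4% and limma-voom 1.92%, so a count of 1 of 43 is near the background. At an unadjusted edgeR p under 0.05 there were 10 S phase genes, against 9.28% of all tested genes, and 6 had libraries that did not overlap, all higher, against 2.79% of all tested genes. Of 49 G2/M genes, 32 were above 0 (65.3%), the median was 0.08 and 0 were called by edgeR, DESeq2 or limma-voom, with 2 at an unadjusted edgeR p under 0.05. The members of S phase and mitosis, Ccna2 at 0.08, Ccnb1 at 0.32, Cdk1 at -0.05 and Cdk2 at -0.19, lay on both sides of 0.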

How the data were processed

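RNA of 8 libraries was sequenced with a QuantSeq 3′ kit. The authors deposited raw counts per gene, made with RNASTAR and htseq_count on GRCm38; the labels name HTSeq 2.16.2. Annotation release and strand setting are not given in the sources used here. Counts were filtered with filterByExpr (minimum count 10, minimum total 15) and scaled by TMM. The conditions were compared in edgeR 4.0.16 (glmQLFit, glmQLFTest; R 4.3.3) without a block, as the study's methods describe for mouse muscle, with Benjamini-Hochberg adjustment over 12060 genes and a threshold of 0.05. The fit was tested on simulated counts first, with the changed genes drawn at random from the tested ones. It recovered 16 of 100 genes changed 2-fold and 56 of 100 changed 4-fold, and called 5 unchanged genes. P-values of the main fit measure the spread between libraries of a condition, which come from different pools, and leave the pairing aside. Log2 CPM used a prior count of 2, and ratios a pseudocount of 0.5 and two-sided exact permutation tests over 70 assignments. Floors cover counting error only. Alternatives were the pool block, DESeq2 1.42.0, RLE and upper quartile factors, no filter, a threshold of 0.10 and leaving out libraries or pools. A further alternative was limma 3.58.1 voom with library weights and a duplicate correlation between libraries of a pool.

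Pool numbers pair libraries, since a number names the same mice in both conditions; deviations of paired libraries correlated between -0.0332 and 0.0313 across genes. The smallest chi-square per degree of freedom between libraries of a condition was 23.6, so none was a duplicate. Pairs with vehicle replicate 3 had 68 to 87.4 and pairs with NAM/PN replicate 4 had 70.7 to 82.4, against 23.6 to 29.5 for the other pairs. The ribosomal RNA gene was among the genes compared. The members and lists were chosen with earlier results of these data known. Named were all members, called genes of the control list, the gene with the smallest p in each role, and the 5 genes most like the member with the smallest p; others are marked as named after their values were seen. The overlapping neighbours of members, single cell type markers, Cdk6, Wee1, Nasp and Ung also lie outside this rule and were named after their values were seen. Positions are from GENCODE M21, which gave symbols for 55141 of 55487 identifiers.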

Additional observations from a re-analysis of the deposited data

Results flagged for a closer look

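A single library stood apart from the other 3 of its condition, by Dixon's test at the 95% level, in 6 of 72 groups of 4 values examined, where chance gives 3.6. Of 20 groups of member levels, 3 held such a library. Ccne1 in vehicle replicate 3 was at 25.7 CPM, against 65.3 to 67.5 CPM in the other vehicle libraries. Ccne2 in NAM/PN replicate 4 was at 155 CPM, against 70.5 to 84.1 CPM. Ccna2 in NAM/PN replicate 1 was at 149 CPM, against 112 to 115 CPM. Outside the members, Rb1 in vehicle replicate 4 was at 41.9 CPM, against 50.4 to 51 CPM, and Mymk in NAM/PN replicate 4 was at 31.5 CPM, against 9.9 to 11.3 CPM. The ribosomal RNA gene CT010467.1 took 18.7% of counts in vehicle replicate 3, the library with the low Ccne1 level, against 9.09% to 9.59% in the other vehicle libraries. The part of the ribosomal RNA share in the Ccne1 value was not tested.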

How the results depend on the processing

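Genes called numbered 154, and 156 with the replicate block (130 shared), 289 with DESeq2 (75 higher, 214 lower), 366 without the filter on low counts (135 higher, 231 lower), 232 with limma-voom and 244 at a threshold of 0.10. They ranged from 42 without replicate 2 of both conditions to 177 without NAM/PN replicate 4. Members called rose from 0 to 1 (Ccnd3) with DESeq2 (log2 fold change -0.66), without the filter (-0.67), with limma-voom (-0.81) and at a threshold of 0.10, and were 0 or 1 with libraries left out. Control list genes called were 1 to 3 with libraries left out, Cdkn1a among them each time, and 2 to 4 otherwise.

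The sign of Ccnd1 reversed in limma-voom (0.10) and that of Cdk1 with the pool as a replicate block (0.032). With libraries or pools left out, log2 fold changes ran from -0.12 to 0.089 for Ccnd1, -0.79 to -0.55 for Ccnd3, -0.54 to 0.029 for Ccne2, -0.067 to 0.25 for Ccna2, -0.39 to 0.22 for Cdk1, -0.35 to 0.079 for Cdk2 and -1.31 to 0.31 for Lin52, and ratio differences from -0.10 to 0.56 for Cdk1 to Cdk2 and -0.16 to 0.47 for Cdk4 to Cdk1. The causes were not tested. Among the genes named, the block changed no other call than that on Cdkn1c. For the ratios, the block allows no exact p below 0.125.

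With 4 libraries a condition, the 95% intervals of members spanned at best -0.35 to 0.30 (Ccnd1) and at widest 0.021 to 1.18 (Ccne1) on the log2 scale. A member that missed the threshold is not thereby shown to be unchanged.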
